A study of Mus musculus with 16 samples.

Results

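Microglia that had taken up Me-X04 were compared with microglia that had not, both sorted from the brains of 5xFAD transgenic (TG) mice. Me-X04 fluoresces, crosses into the brain and sticks to aggregated Aβ, so that a sorted cell carrying it is read as one that has engulfed plaque material. The members were chosen by their sample labels and make up 9 of the 16 RNA sequencing libraries of the series, 4 of TG Me-X04+ (phagocytic) and 5 of TG Me-X04- (non-phagocytic) microglia, and all 17951 genes of the deposited table entered the comparison. Both groups come from mice labelled 6 months old that received the dye and whose neurons express human transgenes with familial Alzheimer's disease mutations from Thy1 promoter elements, so the transgenes, the age and the injection do not differ between them. Libraries 1 to 4 of both groups carry the same animal labels, TG1 to TG4, while TG Me-X04- library 5 has no partner. The other 7 libraries are of wild-type (WT) microglia from mice labelled 2 months old and served only to estimate the spread. The cells were gated as live, CD11b+, CD45+ and CX3CR1+, so Itgam, Ptprc and Cx3cr1, which encode these proteins, were used to choose the cells of both groups.

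Microglia are the resident macrophages of the brain. They engulf debris through surface receptors and actin-driven cups, pass it to acidic lysosomes for digestion, and must then store, export or burn the lipids, sterols, amino acids and metals that digestion sets free. Around amyloid plaques microglia are known to enter a disease-associated (DAM) state, in which Trem2 signalling, lipid handling and lysosomal genes rise and genes of the resting, homeostatic state fall.

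All values below are log2 RPKM (reads per kilobase of gene and unit of sequencing depth, on the log2 scale) as deposited, and a log2 fold change (log2FC) is TG Me-X04+ minus TG Me-X04-. A gene was called differentially expressed (DE) at a limma adjusted p under 0.05 over all genes and an absolute log2FC of at least 0.7, and "rose" and "fell" are written of DE genes only. By this rule 5.49% of the 17951 genes were DE, of which 617 (3.44%) rose and 369 (2.06%) fell in the phagocytic cells. In 7.93% of all genes every library of one group lay above every library of the other, 4.8% with TG Me-X04+ higher and 3.14% with it lower. Within animals, 15.1% of all genes were higher in the TG Me-X04+ library of all 4 animals and 13.9% were lower in all 4. The median log2FC over all genes was -0.09. The DE genes differed in level by direction, with a median log2 RPKM over these libraries of 3.62 for the higher and 0.69 for the lower genes, against 1.54 for all genes. As these are bulk samples of sorted cells, fewer cells of one kind and less RNA per cell cannot be told apart.

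**Figure D1:**
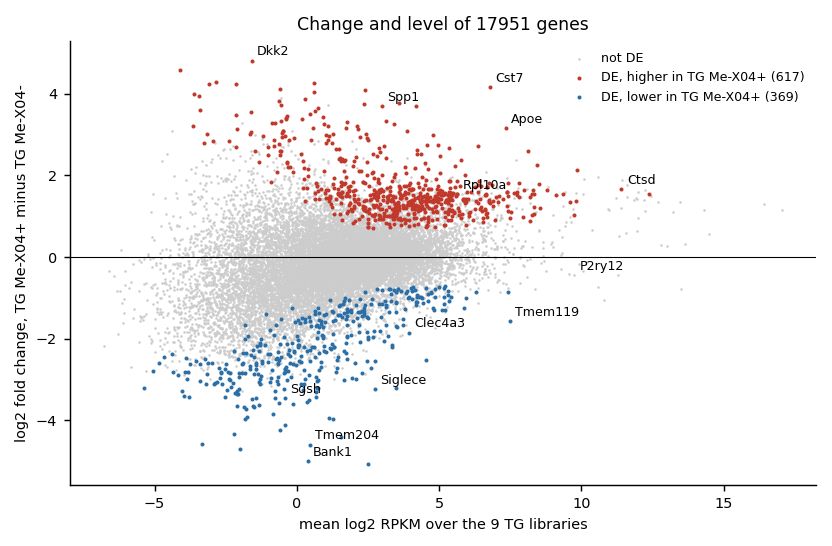
Log2 fold change (TG Me-X04+ minus TG Me-X04-) against the mean log2 RPKM over the 9 TG libraries, 1 point per gene, with the 617 higher DE genes in red, the 369 lower ones in blue and all others in grey. Higher DE genes reach up to the most abundant microglial transcripts such as Ctsd, and Bank1 and Tmem204, which fell by 5.01 and 4.60, lie among genes of low level.

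The libraries held between 17216633 and 25184600 reads on the listed genes in TG Me-X04- and between 22430251 and 27579017 in TG Me-X04+. They fell into 2 sets along the leading principal component, taken after group means were subtracted (37.8% of the variance), with animals TG1 and TG2 in set A and TG3, TG4 and TG Me-X04- library 5 in set B. Mitochondrial genes took 20.6% to 44.8% of the reads in TG Me-X04- and 31.3% to 56.8% in TG Me-X04+, and the share was higher in TG Me-X04+ in each of the 4 animals. Genes with 0 reads numbered 83 to 703 in TG Me-X04- and 450 to 1831 in TG Me-X04+, also higher in each animal. The part of these differences in the results was not tested. Of the 986 DE genes, 761 were among the 2262 DE genes of the set B libraries alone and 65 among the 85 of the set A libraries alone, both chosen after the data were seen. Scaling the libraries by their reads outside mitochondrial genes lowered the median log2FC of all genes to -0.36 and gave 308 higher and 680 lower DE genes (31.2% higher against 62.6%), and quantile normalization gave 421 and 407 (50.8% higher), so medians of gene lists are given below relative to the median of all genes. With the animal as a block, 848 genes (4.72%) were DE, 490 higher and 358 lower, and 741 of them were among the 986. The spread of the WT libraries still entered that fit. With the block and only the 2 TG groups, 1079 genes were DE, 849 higher and 230 lower, of which 652 were among the 986. In leave-one-out fits, in which 1 of the 9 TG libraries was dropped, omitting TG Me-X04+ library 2 or TG Me-X04- library 5 gave 624 and 552 DE genes, and omitting TG Me-X04- library 4 gave 242 lower ones.

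**Figure D2:**
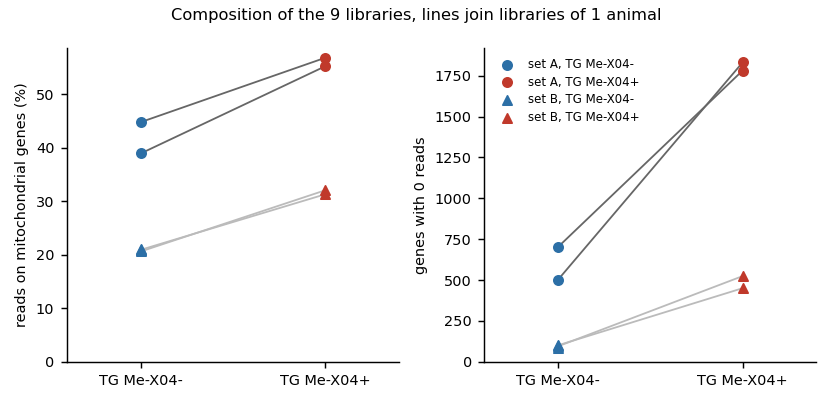
Share of reads on mitochondrial genes (left, percent) and number of genes with 0 reads (right) in the 9 TG libraries, with circles for set A, triangles for set B and lines joining the libraries of 1 animal. Both quantities are higher in the TG Me-X04+ library of every animal, and within each group set A lies above set B, with up to 56.8% mitochondrial reads and 1831 genes at 0 reads.

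The libraries carried the markers of microglia. The summed RPKM of 10 microglia markers ranged from 4530 to 8290 in TG Me-X04- and from 6030 to 8440 in TG Me-X04+ libraries, and of these only Tmem119 was DE. Markers of other cells were at a small fraction of that. The sums of the 6 markers of border-associated macrophages reached at most 19.4 in phagocytic and 6.61 in non-phagocytic libraries, those of the 3 listed neutrophil markers 21 and 26, and those of the 5 listed oligodendrocyte markers 14.7 and 15.8. Of the markers of 10 other cell types, Cspg4 and Flt1 were DE, both higher. The defining T cell genes Cd3e and Cd3d, the B cell gene Ms4a1 and the precursor genes Pdgfra and Olig2 are not among the genes analysed here, and no measured marker was at 0 reads in all TG Me-X04+ libraries.

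Genes of the DAM state had the largest median log2FC and the highest share of DE members of the 47 function lists. Of 31 listed DAM markers 27 rose and none fell, 29 were higher in all 4 animals, and their median log2FC lay 2.10 above that of all genes. The list was drawn up from studies of the same kind of cell, so its direction is not independent of what is known of plaque-associated microglia. It held in part-sets of the libraries, with 29 of 31 rising in set B alone and 13 in set A alone, and 25 to 27 when any 1 library was left out. The function lists share members, so their counts are not independent of each other. Axl and Itgax, for example, are counted again among the phagocytic receptors below, and Apoe and Lpl among the lipid genes.

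Among its secreted members, Spp1 (osteopontin, a matrix protein) had a log2 RPKM of 6.18, 6.10, 3.99 and 3.86 in TG Me-X04+ libraries 1 to 4 and 2.87, 2.02, 0.58, 0.91 and 0.31 in TG Me-X04- libraries 1 to 5. The groups did not overlap, although the libraries of animals TG1 and TG2 lay above those of TG3 and TG4 in both groups. Within animals the differences were 3.31, 4.08, 3.42 and 2.95 for TG1 to TG4, and the log2FC was 3.70 (standard error 0.63, adjusted p = 0.00232). Lpl, the lipase that releases fatty acids from lipoproteins, showed the same layering, with 7.15, 7.25, 5.27 and 5.23 against 3.97, 3.64, 1.66, 1.68 and 1.70 and differences within animals of 3.18, 3.61, 3.61 and 3.55. Igf1, a growth factor, stood at 4.68, 4.74, 4.35 and 4.95 in TG Me-X04+ and at 1.66, 0.70, 0.40, -0.16 and 0.33 in TG Me-X04-, a log2FC of 4.09 (standard error 0.59, adjusted p = 0.000831) with no overlap.

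Trem2, the receptor that binds lipids and lipoproteins, and its adaptor Tyrobp both lay higher in every animal. Trem2 measured 6.21, 6.97, 7.14 and 6.47 in TG Me-X04+ and 5.13, 5.30, 5.77, 5.49 and 5.02 in TG Me-X04-, a rise of 1.35 (adjusted p = 0.0021) that was not called after quantile normalization. Tyrobp measured 9.99, 10.24, 12.33 and 12.06 in TG Me-X04+ and 8.11, 8.07, 10.47, 10.10 and 9.51 in TG Me-X04-, with set A below set B in both groups and overlap between the groups, and was not DE (adjusted p = 0.104). Its differences within animals were 1.88, 2.17, 1.86 and 1.96. With the animal as a block Tyrobp was DE (adjusted p = 0.0355). Other large rises among the DAM genes were those of Cst7 (4.16), Itgax (3.77), Apoe (3.15), Axl (2.99), Ank (2.73), Cd52 (2.37) and Lyz2 (2.60).

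**Figure D3:**
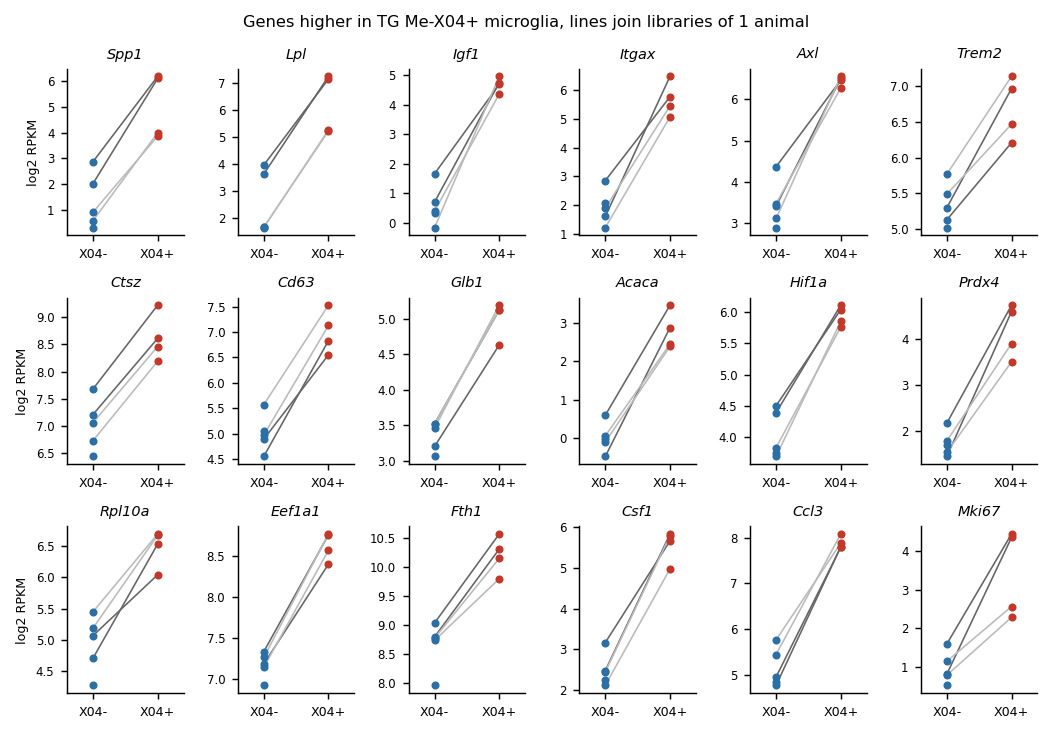
Log2 RPKM of 18 genes higher in TG Me-X04+ (red) than in TG Me-X04- (blue) microglia, 1 point per library, with dark lines joining the libraries of animals TG1 and TG2, light lines those of TG3 and TG4, and TG Me-X04- library 5 without a line. Every line rises in every panel, and for Spp1 and Lpl animals TG1 and TG2 lie above TG3 and TG4 in both groups.

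The degradation machinery rose in part. Cathepsins, the proteases of the lysosome, and their cystatin inhibitors had 7 of 16 members higher and none lower, with a median log2FC 1.12 above that of all genes. Other lysosomal hydrolases had 9 of 38 higher and 1 lower (median 0.78 above all genes), and lysosomal membrane proteins 5 of 24 higher and none lower (0.46 above). After quantile normalization the medians of these 3 lists lay 0.48, 0.23 and 0.09 above that of all genes, in this order. The counts of the cathepsins and hydrolases depended on single libraries. Without TG Me-X04- library 5 the cathepsins numbered 4 instead of 7, and without TG Me-X04+ library 3 the hydrolases 5 instead of 9. After scaling by reads outside mitochondrial genes 3 hydrolases rose and 2 fell. Other fits called more of them higher, 17 with a term for the 2 sets and 13 with the animal as a block and only the 2 TG groups. In set B alone 20 hydrolases rose and in set A alone 0. In each of these fits except set A alone 1 hydrolase fell.

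Ctsz, a carboxypeptidase, measured 8.61, 9.22, 8.46 and 8.19 in TG Me-X04+ against 7.21, 7.68, 7.06, 6.73 and 6.44 in TG Me-X04- and rose by nearly the same amount in each animal, 1.40, 1.54, 1.40 and 1.46 (log2FC 1.60, adjusted p = 0.00197). Ctsl rose by 1.55 and Ctsb by 1.54. Ctsd, the main aspartic protease of the lysosome and one of the most abundant transcripts here, measured 12.09, 12.87, 12 and 12.36 against 11.24, 11.51, 10.19, 10.24 and 10.15, without overlap, and rose by 1.66 (adjusted p = 0.0175). That call was lost without TG Me-X04+ library 2 and without TG Me-X04- library 5, and after quantile normalization. Ctss and Cst3, which were as abundant, had log2FC of 1.20 (adjusted p = 0.0868) and 0.63 (adjusted p = 0.566) and were not DE. Both were higher in every animal, Ctss by 1.16, 1.20, 1.06 and 0.82 and Cst3 by 0.45, 0.66, 0.41 and 0.60. Neither was called with the animal as a block (adjusted p = 0.0616 and 0.597), and Ctss was called in set B alone.

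The members of the hydrolase list that rose were Glb1 (beta-galactosidase), Gusb (beta-glucuronidase), Naglu, Man2b1, Fuca1, the ganglioside activator Gm2a, the sterol carrier Npc2, the thioesterase Ppt1 and the carboxypeptidase Scpep1. Glb1 was at 4.63, 5.12, 5.12 and 5.19 in TG Me-X04+ and 3.20, 3.52, 3.52, 3.46 and 3.06 in TG Me-X04- (log2FC 1.66, adjusted p = 0.00139). Gusb was at 5.47, 6.36, 6.16 and 6.28 and 4.71, 4.57, 4.89, 4.71 and 4.79, a rise of 1.33 (adjusted p = 0.000493). Neither pair of groups overlapped. Naglu, Gm2a and Fuca1 were not called with the animal as a block (adjusted p = 0.0919, 0.0597 and 0.0633). The calls of Gm2a, Npc2 and Fuca1 were each lost in 5 of the 9 leave-one-out fits, and that of Man2b1 without TG Me-X04+ library 3. The exception was Sgsh, the sulfamidase that starts the breakdown of heparan sulfate chains, which fell from -0.07, 1.09, 1.82, 1.40 and 1.29 to -3.01, -3.15, -1.37 and -1.88, with differences of -2.94, -4.24, -3.19 and -3.28 within animals (log2FC -3.46, adjusted p = 0.000983).

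On the lysosomal membrane, Cd63, a tetraspanin of late endosomes, rose from 4.89, 4.55, 5.57, 4.97 and 5.06 to 6.55, 6.83, 7.53 and 7.13 (log2FC 2.00, adjusted p = 0.00158). Cd68 rose by 1.52, Lamp2 by 1.12, Lamp1 by 0.88 and the metal transporter Slc11a1 by 0.98. Of 21 subunits of the proton pump (V-ATPase) 1 rose and 1 fell, with a median 0.41 above that of all genes (0.12 after quantile normalization), and the mean log2 RPKM of the list was 3.07 to 3.33 in the phagocytic and 2.74 to 2.87 in the non-phagocytic libraries. Both DE genes encode subunits of the membrane sector. Atp6v0d2 rose by 3.47 from a low level (-2.08, -4.22, -4.83, -4.33 and -3.00 against 0.54, 0.89, -2.35 and 0.05, adjusted p = 0.00636), with 1 TG Me-X04+ library inside the range of TG Me-X04-, and Atp6v0a2 fell by 0.87 (adjusted p = 0.0136), a call lost without TG Me-X04+ library 2. Subunits of the enzyme that tags hydrolases with mannose 6-phosphate, Gnptab (1.35, adjusted p = 0.0121) and Gnptg (1.16, adjusted p = 0.0316), also rose, and were looked up after the values were seen. Gnptg was not called with the animal as a block (adjusted p = 0.078) or in 5 of the 9 leave-one-out fits. The call of Lamp1 was lost without TG Me-X04+ library 2 or 3 and without TG Me-X04- library 5.

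Upstream and beside the lysosome few genes were DE. Among 13 MiT/TFE transcription factors (regulators of lysosomal genes) and their targets, Trpm1 (4.30) and Rragd (1.92) rose, the latter called in 2 of the 9 leave-one-out fits, and Mitf, Tfeb, Tfec and Tfe3 were not DE. Trpm1 was at a low level, -5.81 to -3.85 in TG Me-X04- and -1.11 to 0.49 in TG Me-X04+. Of 35 autophagy genes 1 rose (Gabarap, 1.04, not called with the animal as a block, adjusted p = 0.0887, or in 5 of the 9 leave-one-out fits), of 38 proteasome subunits 1 (Psmb1, 0.91, not called in 6 of those 9 fits) and of 47 Rab GTPases 1 rose and 1 fell. The riser was Rab7b, a late endosomal Rab of myeloid cells, which went from -0.29, -1.13, -1.39, -0.52 and -0.84 to 1.87, 2.85, 2.04 and 2.57 (log2FC 3.17, adjusted p = 0.00232). The ubiquitous Rab7 had a log2FC of 0.98 (adjusted p = 0.269) and was higher in every animal, by 0.92, 0.79, 0.60 and 0.98. Rab7 was not called with the animal as a block (adjusted p = 0.136) but was called in set B alone.

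Promoters of the lysosomal genes were read for the E-box TCACGTG (either strand), the core of the element that MiT/TFE factors bind, in the window from 250 bases before to 50 after each start in RefSeq (GRCm38.p6). It was in the promoters of 18 of 76 genes of the 4 lysosomal lists (23.7%), against 6.82% of 9807 protein-coding genes with a promoter. The shorter palindrome CACGTG, which TCACGTG contains, was in 26.3% and 11.4%. The share did not separate lysosomal genes that rose (5 of 19, 26.3%) from those that did not (13 of 57, 22.8%). Over all protein-coding genes it was 7.34% of those higher and 5.76% of those lower in TG Me-X04+. The PU.1-type motif GAGGAAGT (either strand) was in 5.24% of the higher and 6.81% of the lower genes, against 3.79% of all protein-coding genes. A match is a description of the sequence and not of binding. The windows around the match in the 5 lysosomal genes that rose and hold it are given below from 5′ to 3′ on the strand of the gene, up to 40 bases on either side and none past the start, with each copy of the motif (TCACGTG, or CACGTGA where it lies on the other strand) in capitals. The window of Lamp1 holds 3 copies, and in that of Ctsa a copy on each strand overlap.
Ctsd, chr7:142388026-142388077, minus strand: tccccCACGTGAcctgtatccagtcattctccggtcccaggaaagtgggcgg
Glb1, chr9:114400989-114401075, plus strand: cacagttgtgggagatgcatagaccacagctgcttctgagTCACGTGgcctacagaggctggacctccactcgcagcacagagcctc
Ctsa, chr2:164833720-164833772, plus strand: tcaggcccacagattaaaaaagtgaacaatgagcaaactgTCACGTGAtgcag
Naglu, chr11:101069980-101070066, plus strand: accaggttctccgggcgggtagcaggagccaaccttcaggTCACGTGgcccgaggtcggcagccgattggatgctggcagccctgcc
Lamp1, chr8:13159059-13159145, plus strand: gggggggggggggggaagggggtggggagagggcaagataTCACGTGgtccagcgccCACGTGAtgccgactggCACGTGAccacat

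Of 30 phagocytic and scavenger receptors and adaptors 6 rose (Axl, Clec7a, Itgax, Trem2, Tlr2 and the Fc receptor gamma chain Fcer1g) and 1 fell. Their median log2FC lay 0.48 above that of all genes (0.06 after quantile normalization). Axl, a receptor tyrosine kinase that binds phosphatidylserine through a bridging ligand, went from 4.37, 3.42, 3.12, 3.48 and 2.90 to 6.46, 6.50, 6.55 and 6.27 (log2FC 2.99, adjusted p = 8.16e-05). Fcer1g was not called with the animal as a block (adjusted p = 0.0645) or in 6 of the 9 leave-one-out fits. Clec7a (dectin-1, a beta-glucan receptor annotated here as a polymorphic pseudogene) went from 3.74, 2.73, 3.04, 3.37 and 3.79 to 5.57, 5.78, 6.55 and 6.44 (log2FC 2.75). Stab1, a scavenger receptor for modified lipoproteins and apoptotic cells, moved the other way, from 4.01, 3.82, 4.38, 4.62 and 4.60 to 1.29, 2.30, 2.05 and 2.88 (log2FC -2.15, adjusted p = 0.00126). Of the receptors without a call, Mertk, Fcgr3 and Cd36 had log2FC of -0.11, 0.24 and 0.20 (adjusted p = 0.781, 0.789 and 0.94). Of 16 complement genes none but Itgax was DE, and C1qb had a log2FC of 0.67 (adjusted p = 0.257). The list's median lay 0.58 above that of all genes but 0.09 below it after quantile normalization.

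Inhibitory receptors moved in both directions. Siglece, a sialic acid receptor that restrains phagocytosis, stood at 4.25, 4.56, 4.16, 3.92 and 4.04 in TG Me-X04- and 0.76, 0.04, 1.12 and 1.87 in TG Me-X04+, a fall of 3.24 on the log2 scale (adjusted p = 4.89e-05), and Cd300a fell by 1.00. Siglecf rose from 2.61, 2.57, 2.41, 1.96 and 0.87 to 3.95, 4.25, 3.91 and 4.26 (log2FC 2.01, adjusted p = 0.00117) and Lilrb4a by 2.07 (adjusted p = 0.00909). Cd274 (PD-L1) rose by 1.80 (adjusted p = 0.0247) and was not called in 5 of the 9 leave-one-out fits. Siglech and Cd33, the most abundant of this list of 21, had log2FC of -0.07 and -0.63 and were not DE. Cd33 was called lower after quantile normalization and after scaling by reads outside mitochondrial genes, and Siglech after the former.

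The actin list of 43 genes held 2 rises and 1 fall. Myo1e, a motor of the phagocytic cup, went from 2.35, 1.59, 1.82, 1.44 and 1.32 to 4.32, 4.40, 4.16 and 4.60 (log2FC 2.67, adjusted p = 2.12e-05) and by 1.97, 2.80, 2.34 and 3.16 within animals. Cfl1 (cofilin, which severs actin filaments) rose by 0.92, but not with the animal as a block (adjusted p = 0.0765) or in 7 of the 9 leave-one-out fits. The engulfment adaptor Elmo1 fell by 0.70, a call lost in 4 of those 9 fits, and Actb had a log2FC of -0.14 (adjusted p = 0.892). In antigen presentation 3 of 18 class I genes rose, among them H2-D1, from 5.93, 5.64, 6.22, 6.35 and 5.49 to 6.61, 6.99, 7.90 and 7.06 (log2FC 1.21, adjusted p = 0.0117), and 17 of the 18 had a log2FC above 0. H2-D1 was not called when the libraries were scaled by reads outside mitochondrial genes. B2m, the class I light chain, rose by 1.54 (adjusted p = 0.0382) in a call lost in 7 of the 9 leave-one-out fits and with the animal as a block (adjusted p = 0.0571). Of 10 class II genes only H2-Ob was DE, and it was not called with the animal as a block (adjusted p = 0.0569) or in 6 of the 9 leave-one-out fits. Of the 10 genes 9 had a log2FC above 0, and the list's median lay 1.19 above that of all genes. Its medians within animals TG1 to TG4 were 0.24, 1.36, 1.55 and 0.51. Cd74, the invariant chain, differed by 0.37, 1.22, 3.73 and 0.41 within animals, so that animal TG3 lay far from the others (log2FC 1.82, adjusted p = 0.23).

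Of 25 genes of lipid uptake, storage and efflux 8 rose and none fell (median 0.69 above all genes), among them Lpl, Apoe, Apoc1, Fabp5, Ch25h, Nceh1 and Plin2. With the animal as a block 5 were called, and without TG Me-X04+ library 1 also 5. Apoe, the main lipoprotein of the brain, measured 8.01, 8.87, 9.85 and 9.62 in TG Me-X04+ and 6.33, 5.45, 6.39, 6.24 and 5.29 in TG Me-X04-, with differences of 1.68, 3.42, 3.46 and 3.38 within animals. Ch25h, which makes 25-hydroxycholesterol, went from -0.11, -1.17, 0.02, 1.08 and -1.43 to 2.04, 2.79, 3.79 and 2.96 (log2FC 3.22, adjusted p = 0.00236), and the groups did not overlap. The calls of Fabp5, Apoc1 and Plin2, a coat protein of lipid droplets, were lost with the animal as a block (adjusted p = 0.0931, 0.0677 and 0.102) and in 8, 5 and 7 of the 9 leave-one-out fits. The cholesterol exporter Abca1 had a log2FC of -0.39 (adjusted p = 0.221) and the lysosomal lipase Lipa of 0.89 (adjusted p = 0.12). Within animals Abca1 differed by -0.65, -0.59, -0.33 and -0.11 and Lipa by 0.52, 0.51, 1.26 and 1.08. Neither was called with the animal as a block (adjusted p = 0.161 and 0.0701), and Lipa was called in set B alone.

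Of 33 genes of sterol and fatty acid synthesis 3 rose, and the list's median lay 0.66 above that of all genes. Acaca, which makes malonyl-CoA for fatty acid synthesis, stood at 0.59, -0.49, 0.05, -0.11 and -0.04 in TG Me-X04- and at 3.47, 2.88, 2.45 and 2.39 in TG Me-X04+ (log2FC 2.80, adjusted p = 0.00107). Sqle and Hmgcs1 of the sterol branch rose by 1.37 and 1.01, without a call when the animal was a block (adjusted p = 0.103 and 0.0668) and in 8 and 6 of the 9 leave-one-out fits. Of 16 genes of the prostaglandin and leukotriene pathway the only DE gene was Ptger3, a prostaglandin E2 receptor, which had 0 reads in every TG Me-X04+ library and 18 to 83 in TG Me-X04-. Set against a floor of 3 reads per library it was at least 15.8-fold lower in TG Me-X04+.

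Of 77 cytosolic ribosomal protein genes 27 rose and none fell, 72 were higher in all 4 animals, and their median lay 1.21 above that of all genes (0.83 after quantile normalization). The count was 23 with the animal as a block and 53 with that block and only the 2 TG groups. With a term for the 2 sets it was 65, in set B alone 46 and in set A alone 2. It was 12 when scaled by reads outside mitochondrial genes and 13 without TG Me-X04+ library 3. These genes share sequence with many processed pseudogenes, which can split or gain their reads, so single members are uncertain. Rpl10a was at 5.07, 4.71, 5.19, 5.45 and 4.28 in TG Me-X04- and 6.04, 6.53, 6.67 and 6.69 in TG Me-X04+ (log2FC 1.54, adjusted p = 0.00125), and Rpl23 rose by 1.66. Of 64 translation factors 5 rose, led by the elongation factors Eef1a1, Eef1b2 and Eef2. Eef1a1, which brings aminoacyl-tRNA to the ribosome, went from 7.18, 7.33, 7.26, 7.14 and 6.92 to 8.40, 8.76, 8.77 and 8.57, by 1.22, 1.43, 1.51 and 1.43 within animals (log2FC 1.46, adjusted p = 0.000259). It was not called after quantile normalization, and the call of Eef2 was lost without TG Me-X04+ library 2 and without TG Me-X04- library 4 or 5. Mitochondrial ribosomal proteins had 1 of 78 genes higher and a median within 0.04 of that of all genes.

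Of 29 genes of glycolysis and the hypoxia response 9 rose and none fell, with a median 1.02 above that of all genes, and 6 to 10 rose when any 1 library was left out. Hif1a, the oxygen-sensitive transcription factor that induces glycolytic enzymes, stood at 4.39, 4.50, 3.69, 3.83 and 3.74 in TG Me-X04- and 6.11, 6.04, 5.85 and 5.76 in TG Me-X04+ (log2FC 1.91, adjusted p = 0.000301). Enzymes that rose were Tpi1 (1.81), Pgk1 (1.59), Aldoa (1.35), Pkm (1.34), Ldha (1.25) and Eno1 (1.02), together with the glucose transporter Slc2a1 (1.19) and the prolyl hydroxylase Egln3 (3.74). Pgk1 and Eno1 were not called with the animal as a block (adjusted p = 0.0791 and 0.0544) and each lost its call in 6 of the 9 leave-one-out fits, and Pkm lost it without TG Me-X04+ library 3 or 4 and without TG Me-X04- library 5. Of the members without a call, hexokinase 2 (Hk2) had a log2FC of -0.31 (adjusted p = 0.636) and Ldhb, the most abundant of the list, of -0.08 (adjusted p = 0.934). No gene of the citric acid cycle and fatty acid oxidation was DE (0 of 23, beside 5.49% of all genes), in this fit, with the animal as a block or when any 1 library was left out. In a list of this size that share comes to few genes. Set B alone and a term for the 2 sets each called 1 higher. The list's median lay 0.225 above that of all genes (0.13 after quantile normalization).

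Nuclear-encoded subunits of oxidative phosphorylation had 7 of 80 members higher, none lower and a median 0.62 above that of all genes, and 4 rose without TG Me-X04+ library 2. Ndufa1, a subunit of complex I, went from 3.53, 4.07, 3.14, 2.79 and 2.69 to 6.82, 5.46, 5.67 and 5.16 (log2FC 2.53, adjusted p = 0.00229) and Cox6a2, the muscle isoform of a complex IV subunit, from 1.49, 2.65, 1.17, 2.02 and 1.04 to 3.94, 4.70, 5.91 and 5.43 (log2FC 3.32). All 13 protein-coding genes of the mitochondrial genome were higher in TG Me-X04+ in all 4 animals, with differences of 1.35, 0.99, 1.03 and 1.27 for COX1. Their median lay 1.53 above that of all genes (0.39 after quantile normalization). Only ND3 was called (1.04, adjusted p = 0.0492), a call lost with the animal as a block (adjusted p = 0.0992) and in 7 of the 9 leave-one-out fits. With that block and only the 2 TG groups all 13 were called higher, as with a term for the 2 sets. Set B alone called 5 of them higher and set A alone 0. The level of these genes depended on the set, COX1 measuring 15.35, 15.32, 12.87 and 13.38 in TG Me-X04+ and 14.01, 14.33, 11.84, 12.11 and 12.09 in TG Me-X04-.

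Of 24 NADPH oxidase and antioxidant genes 3 rose and none fell (median 0.64 above all genes), and of 14 genes of iron and heme handling 2 rose (0.11 above). Fth1, the heavy chain of ferritin, rose from 8.80, 9.04, 8.78, 8.74 and 7.97 to 10.31, 10.57, 10.15 and 9.80 (log2FC 1.54, adjusted p = 0.0017). The light chain Ftl1 had a log2FC of 0.95 (adjusted p = 0.373), with differences of 0.69, 1.22, 1.07 and 1.08 within animals. Ftl1 was not called with the animal as a block (adjusted p = 0.266) but was called in set B alone. Prdx4, the peroxiredoxin of the secretory pathway, went from 2.17, 1.44, 1.78, 1.53 and 1.70 to 4.75, 4.61, 3.91 and 3.51 (log2FC 2.47, adjusted p = 0.000983), and Sod1 and the NADPH oxidase subunit Cybb rose by 0.95 and 2.24. Cybb was not called with the animal as a block (adjusted p = 0.0642) or in 5 of the 9 leave-one-out fits. Of 71 heat shock proteins and chaperonins 3 rose.

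**Figure D4:**
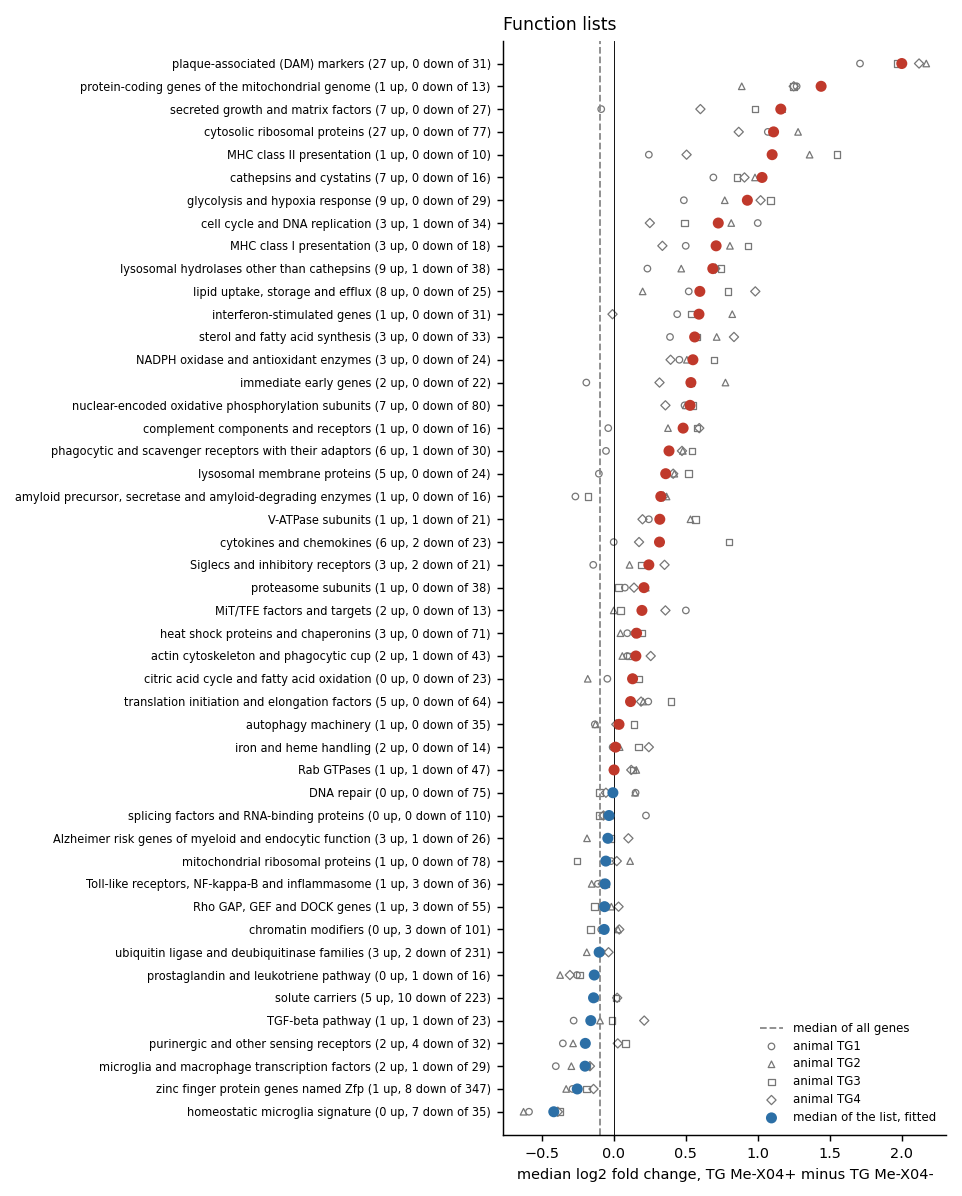
Median log2 fold change (TG Me-X04+ minus TG Me-X04-) of 47 function lists, with filled points for the fitted median (red above 0, blue below), open symbols for the median of the differences within each of 4 animals, a dashed line for the median of all genes and, in brackets, the number of DE members. DAM markers lie furthest to the right and the homeostatic signature, with 7 of 35 members lower and none higher, furthest to the left.

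Of 35 genes of the homeostatic signature 7 were lower and none higher, 22 were lower in all 4 animals, and the median lay 0.32 below that of all genes (1.04 below after quantile normalization). Tmem119, a membrane protein particular to microglia, stood at 7.79, 8.15, 8.41, 8.42 and 8.17 in TG Me-X04- and 5.66, 6.58, 7.19 and 7.01 in TG Me-X04+ (log2FC -1.58, adjusted p = 0.00821). Crybb1, a crystallin of early microglia, went from 5.12, 5.14, 5.95, 6.09 and 6.08 to 3.71, 2.03, 3.62 and 3.21 (log2FC -2.53, adjusted p = 0.000447), and for neither gene did the groups overlap. Ecscr, Txnip, Maf and the fructose transporter Slc2a5 also fell, by 3.21, 1.31, 1.15 and 0.87, and the call of Slc2a5 was lost in 5 of the 9 leave-one-out fits. Ecscr had its lowest value, -1.61, in TG Me-X04+ library 1, far below the other libraries of that group.

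Other well known markers of the resting state were not DE. P2ry12 had 9.52, 9.57, 9.58 and 9.31 in TG Me-X04+ and 9.89, 10.52, 10.01, 9.74 and 9.55 in TG Me-X04- (log2FC -0.45, adjusted p = 0.431), and Cx3cr1, one of the gated proteins, had a log2FC of -0.35 (adjusted p = 0.728). Both were lower in all 4 animals, with differences of -0.37, -0.95, -0.43 and -0.43 for P2ry12 and -0.59, -0.45, -0.49 and -0.35 for Cx3cr1, and both were called lower after quantile normalization. Csf1r (0.11), Tgfbr1 (-0.20), Siglech (-0.07) and Sparc (0.06) were not DE, and of these Tgfbr1 and Siglech were called lower after quantile normalization. Of 29 transcription factors of microglia and macrophages Maf fell, from 5.89, 6.01, 5.51, 5.58 and 5.41 to 4.75, 4.83, 4.38 and 4.16, and Bhlhe40, a repressor of the clock family, and Ets2 rose, by 3.01 and 1.43. The call of Ets2 was lost with the animal as a block (adjusted p = 0.0608) and in all 9 leave-one-out fits. The lineage factor Mef2a had a log2FC of -0.56 (adjusted p = 0.149). In the TGF-beta list of 23, the receptor Tgfbr2 rose by 1.06, a call lost in 5 of the 9 leave-one-out fits, and Tmem204 fell.

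**Figure D5:**
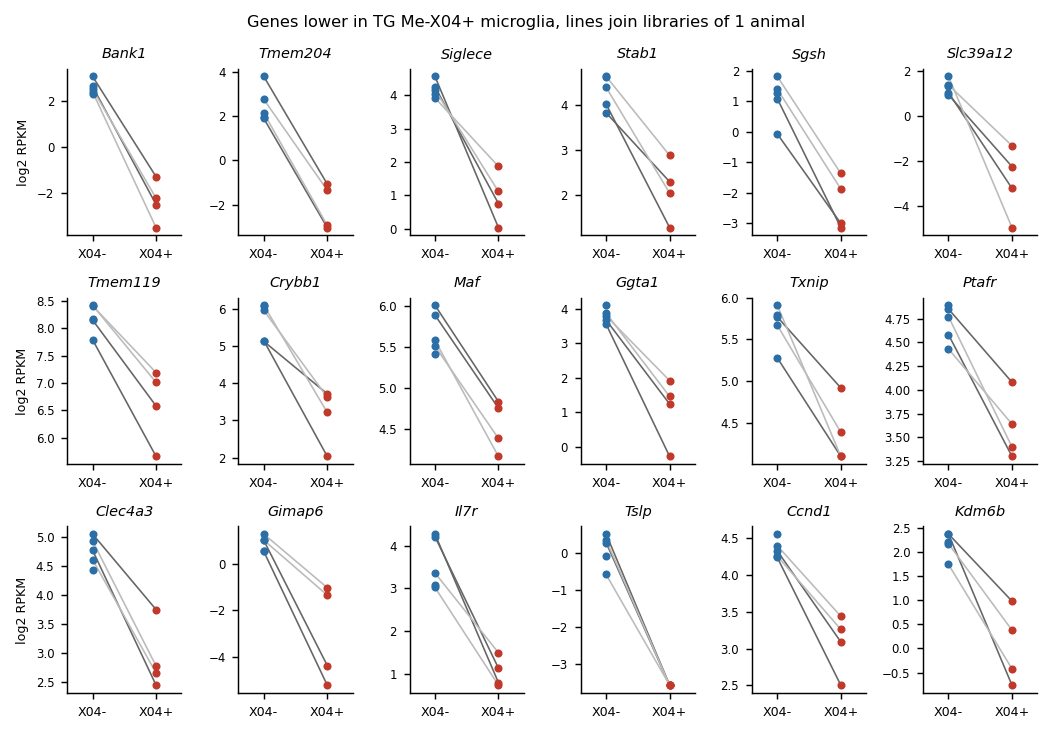
Log2 RPKM of 18 genes lower in TG Me-X04+ (red) than in TG Me-X04- (blue) microglia, drawn as in the plot of higher genes. Every line falls in every panel, and Bank1 and Tmem204 lie below 0 in all 4 TG Me-X04+ libraries.

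Of 23 cytokines and chemokines 6 rose and 2 fell. Csf1, the ligand of the receptor on which microglia depend for survival, went from 3.17, 2.48, 2.12, 2.45 and 2.25 to 5.67, 5.84, 4.98 and 5.80 (log2FC 3.08, adjusted p = 2.12e-05) and the chemokine Ccl3 from 4.96, 4.78, 5.45, 5.77 and 4.84 to 7.79, 7.80, 8.08 and 7.88 (log2FC 2.73, adjusted p = 0.00023). Ccl4, Ccl6, Cxcl16 and the interleukin-1 antagonist Il1rn rose by 2.21, 2.67, 1.06 and 3.03. With the animal as a block Il1rn was not called (adjusted p = 0.0887), nor in 6 of the 9 leave-one-out fits. Tslp had 0 reads in every TG Me-X04+ library and 18 to 34 in TG Me-X04-, at least 6.72-fold lower.

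Among 32 sensing receptors 4 fell, among them Ptger3, the platelet-activating factor receptor Ptafr and Ifngr1, and 2 rose, Tgfbr2 and the sphingosine 1-phosphate receptor S1pr1 (1.34). The call of Ifngr1 was lost in 7 of the 9 leave-one-out fits. Ptafr went from 4.58, 4.85, 4.77, 4.43 and 4.89 to 3.30, 4.08, 3.40 and 3.64 (log2FC -1.10, adjusted p = 0.00192). In the list of Toll-like receptors, NF-kappa-B and inflammasome genes 1 of 36 rose, Tlr2 (1.20), and 3 fell. The fallers were the flagellin receptor Tlr5, the inhibitor Nfkbie and the pore-forming Gsdmd. Tlr5 went from 2.07, 1.10, 2.65, 1.97 and 2.45 to -2.62, -0.98, -0.35 and 1.33 (log2FC -2.70, adjusted p = 0.00733), with TG Me-X04+ library 4 inside the range of TG Me-X04-. Tlr2 went from 4.03, 3.61, 3.86, 3.92 and 3.93 to 4.77, 5.16, 5.20 and 5.13, without overlap. Tlr2 was not called after quantile normalization or after scaling by reads outside mitochondrial genes. The calls of Gsdmd and Nfkbie were each lost in 5 of the 9 leave-one-out fits, and without TG Me-X04+ library 2 the list had 1 fall. Of 31 interferon-stimulated genes 1 rose (Oas1a, 1.93, not called with the animal as a block, adjusted p = 0.0961), although the list's median lay 0.69 above that of all genes, and of 22 immediate early genes Egr2 (2.11) and Atf3 (1.84) rose, neither with the animal as a block (adjusted p = 0.0651 and 0.0653). The calls of Oas1a, Egr2 and Atf3 were lost in 8, 7 and 4 of the 9 leave-one-out fits.

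Growth and matrix factors rose in 7 of 27 genes. Lox, which crosslinks collagen, went from 1.49, 0.54, -0.30, 0.12 and -0.40 to 4.53, 3.41, 3.37 and 3.06 (log2FC 3.30, adjusted p = 0.00124), and Dkk2, a secreted Wnt inhibitor, from -4.57, -4.67, -2.61, -1.49 and -5.27 to 1.75, 1.26, 0.42 and 0.89. Dkk2 had differences of 6.32, 5.92, 3.03 and 2.38 within animals, so the rise was larger in TG1 and TG2. Vegfb and Serpine2 rose by 1.23 and 1.71, the former not with the animal as a block (adjusted p = 0.0731) or in 5 of the 9 leave-one-out fits. The matrix protein Sparc, the most abundant of the list, was not DE (log2FC 0.06, adjusted p = 0.94).

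Of 34 genes of cell division 3 rose and 1 fell. The list's median lay 0.82 above that of all genes, and its medians within animals TG1 to TG4 were 1.00, 0.82, 0.49 and 0.25. Among genes with a mean log2 RPKM of at least 2 the list's median lay 0.695 below that of all such genes. Mki67, a marker of cycling cells, stood at 1.60, 0.82, 0.79, 1.15 and 0.53 in TG Me-X04- and 4.45, 4.36, 2.29 and 2.57 in TG Me-X04+ (log2FC 2.44, adjusted p = 0.00821), with no overlap. Its differences within animals, 2.86, 3.53, 1.50 and 1.42, were larger in TG1 and TG2. Cenpe and Tyms rose by 2.20 and 1.37, and neither was called with the animal as a block (adjusted p = 0.0545 and 0.0502). Cenpe also lost its call in 6 of the 9 leave-one-out fits, and Tyms without TG Me-X04+ library 3. Ccnd1, the D-type cyclin that responds to growth signals, fell from 4.24, 4.33, 4.26, 4.40 and 4.56 to 2.5, 3.09, 3.26 and 3.44 (log2FC -1.28, adjusted p = 0.00194). No gene of DNA repair (0 of 75) or of splicing (0 of 110) was DE here or with the animal as a block. Over all genes 5.49% and 4.72% were DE in these 2 fits. Set B alone called 2 splicing genes higher and 6 lower, and a term for the 2 sets 3 higher and 2 lower. Both of these fits called 0 genes of DNA repair. Of 101 genes listed as chromatin modifiers 3 fell and none rose, 2.97% DE against 5.49% of all genes. The demethylase Kdm6b went from 2.37, 2.37, 1.74, 2.17 and 2.21 to -0.76, 0.98, -0.42 and 0.38 (log2FC -2.13, adjusted p = 0.00107). Arid3a (-1.55) and Arid3b (-1.38), named for an AT-rich interaction domain, also fell, the latter not called without TG Me-X04+ library 1 or 2. Zinc finger genes named Zfp had 8 of 347 lower and 1 higher, 2.59% DE in either direction against 5.49% of all genes. Their median lay 0.16 below that of all genes. The number lower was 15 after scaling by reads outside mitochondrial genes, 5 with the animal as a block and 3 without TG Me-X04- library 5.

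Bank1, a scaffold of immune receptor signalling, had the largest fall among called genes, Gm and Rik names aside, with a mean log2 RPKM of at least 2 in TG Me-X04-, no overlap and the same sign in all 4 animals, from 2.66, 3.10, 2.54, 2.42 and 2.31 in TG Me-X04- to -2.52, -1.30, -2.24 and -3.53 in TG Me-X04+ (log2FC -5.01, adjusted p = 1.11e-05). Tmem204, a claudin-like membrane protein, went from 1.89, 3.78, 2.75, 2.13 and 1.96 to -3.03, -1.07, -1.35 and -2.93, by -4.92, -4.84, -4.10 and -5.06 within animals. Neither pair of groups overlapped. Others among the 10 largest falls within these limits of level and overlap were Slco4a1 (-3.20), the glycosyltransferases Lfng (-3.03) and Ggta1 (-2.72), the transglutaminase Tgm2 (-3.01), Camk2n1 (-2.95) and the miRNA gene Mir7227. The last had 0 reads in every TG Me-X04+ library and 11 to 17 in TG Me-X04- and was at least 3.49-fold lower. Ggta1, which builds the alpha-gal epitope, went from 3.56, 3.68, 3.88, 3.80 and 4.11 to -0.28, 1.24, 1.46 and 1.92 (adjusted p = 0.00023).

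Solute carriers had 10 of 223 members lower and 5 higher, 6.73% DE in either direction against 5.49% of all genes. The largest falls in this list were Slc39a12, a zinc importer, from 1.05, 0.95, 1.77, 1.39 and 1.32 to -3.22, -2.25, -4.97 and -1.32 (log2FC -4.24, adjusted p = 0.000287), Slc13a3, a dicarboxylate importer, from 1.58, 1.10, 1.48, 1.34 and 1.60 to -4.40, -1.56, -2.88 and -1.89 (log2FC -4.10), Slc16a9 (-3.63) and Slc1a4 (-3.34). Without TG Me-X04- library 3 the number of falls was 5. Outside the DAM list, the largest rises within the same limits, with the level taken in TG Me-X04+, were Mamdc2 (4.04), Egln3, Etl4 (3.66), Pianp (3.57) and Actr3b (3.43). Mamdc2 went from 0.36, 0.07, -3.79, -1.62 and -0.92 to 3.57, 3.49, 1.59 and 2.80, without overlap.

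Some neighbouring gene families moved together, and these were picked after their values were seen. Of the Gimap GTPases, clustered genes of lymphocyte and myeloid survival, 4 were listed and 3 fell. Gimap6 went from 0.99, 0.52, 1.26, 1.00 and 0.55 to -4.35, -5.19, -1.03 and -1.35 (log2FC -3.84, adjusted p = 0.00255), with the lowest values in animals TG1 and TG2, and Gimap5 had 0 reads in every TG Me-X04+ library and 20 to 56 in TG Me-X04-, at least 12-fold lower. Of the Clec4 lectins, pattern receptors of myeloid cells, 5 were listed and 4 fell. Clec4a3 stood at 5.05, 4.77, 4.93, 4.61 and 4.43 in TG Me-X04- and 3.75, 2.45, 2.78 and 2.66 in TG Me-X04+ (log2FC -1.85, adjusted p = 0.000971), and Clec4a2 and Clec4a4 fell by 2.31 and 2.76. Clec7a, of another branch of this lectin group, rose. Il7r, a cytokine receptor subunit, went from 4.27, 4.21, 3.02, 3.36 and 3.07 to 0.79, 1.13, 0.73 and 1.49 (log2FC -2.55, adjusted p = 0.000427). Of 17 semaphorins and plexins Plxna1, Plxna4 and Sema4b fell (-2.59, -1.23 and -3.49) and Plxna2 rose (3.93). Plxna2 was at a low level, -6.88 to -4.15 in TG Me-X04- and -1.68 to -0.90 in TG Me-X04+. Plxna1 also lay below 0 in every TG library, and both lost their call when 1 was added to the values. The call of Plxna4 was lost without TG Me-X04+ library 3, and that of Plxna1 without TG Me-X04+ library 2 or 3 and without TG Me-X04- library 5. Of 15 olfactory receptor genes 4 rose, Olfr110, Olfr111, Olfr113 and Olfr115, of which Olfr111 was the most abundant and went from 3.58, 2.64, 3.79, 3.99 and 3.70 to 5.41, 4.25, 6.48 and 5.88 (log2FC 1.97, adjusted p = 0.00676). The calls of Olfr110, Olfr113 and Olfr115 were lost in 2, 4 and 1 of the 9 leave-one-out fits.

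By gene type, long intergenic RNAs had 22 of 484 genes lower (4.55%) and 2 higher, and antisense genes 24 of 888 lower (2.7%) and 10 higher. Small nucleolar RNAs had 6 of 193 lower (3.11%) and none higher. Over all genes 2.06% were lower and 3.44% higher. Whether reads were counted by strand is not stated in the sources used here, so antisense genes cannot be told from the genes opposite them. Processed pseudogenes ran the other way, with 198 of 1812 (10.9%) higher and 18 lower, and without them the DE genes numbered 746, 401 higher and 345 lower.

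Of 26 genes of myeloid or endocytic function that carry risk for Alzheimer's disease, Apoe, Trem2 and Grn rose and Bank1 fell. Grn (progranulin, a lysosomal growth factor) measured 7.94, 8.36, 8.96 and 8.73 in TG Me-X04+ against 7.41, 7.51, 7.70, 7.69 and 7.27 in TG Me-X04- (log2FC 0.98, adjusted p = 0.0319), a call lost with the animal as a block (adjusted p = 0.0539) and in 6 of the 9 leave-one-out fits. Of 16 genes of the amyloid precursor, its secretases and degrading enzymes only Aplp2, a relative of the precursor, was DE. It went from 4.30, 4.52, 2.87, 3.23 and 3.28 to 6.24, 6.49, 5.31 and 5.14, and by 1.94, 1.97, 2.44 and 1.91 within animals (log2FC 2.16, adjusted p = 0.00286). The alpha-secretase Adam10 had a log2FC of -0.15 (adjusted p = 0.735).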

How the data were processed

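RNA was sequenced from microglia sorted as live CD11b+ CD45+ CX3CR1+ cells after an injection of Me-X04, and the groups, ages and animal labels were taken from the sample labels. Per the study's methods and the submitters' processing notes, the authors trimmed reads with Trim Galore 0.4.4, aligned them to GRCm38 with STAR 2.5.4b, counted them per gene with featureCounts, removed genes of low count and normalized by the TMM method in edgeR 3.24.3. The deposited values are log2 RPKM, with a small prior count added, so fold changes of genes near 0 reads are understated. Whole reads could be recovered from all values (tolerance 0.01) and were used for depth, for floors of 3 reads per library and for 2 alternatives.

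As the deposited unit is log2 and not counts, limma 3.58.1 in R 4.3.3 was fitted to all 16 libraries in 3 groups, with a variance trend and Benjamini-Hochberg adjustment over 17951 genes. The thresholds for DE genes were 0.05 for the adjusted p and 0.7 for the size of the log2FC. No statement in the labels says that WT libraries pair with the others, but TG libraries 1 to 4 of both groups share animals. Deviations of libraries of the same animal from their group means correlated at 0.29 to 0.33 across genes (mean 0.32). Different animals of the same set gave 0.23 to 0.33 (mean 0.28), a range that holds the same-animal values. For different sets the mean was -0.30. The animal was therefore used as a block in an alternative. Symbols were deposited for 12919 genes and added from the reference annotation for 4874.

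The members, gene lists and tests were chosen with earlier results of these data known. Genes named by rule were, for each list, up to 4 DE members of largest change without overlap and up to 2 of highest level without a call, with the 10 largest rises and falls over all genes that did not overlap, had the same sign in all 4 animals and a mean log2 RPKM of at least 2 in the higher group, and the microglia markers. Other named genes were chosen after their values were seen. The model was tested on simulated data. Figures were drawn with matplotlib 3.10.9.

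A few results are not reported here because the items they concern are withheld.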

Additional observations from a re-analysis of the deposited data

Results flagged for a closer look

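In 16 of 370 groups of values tested (4.32%), 1 library lay so far from the others that its gap to the nearest, as a share of the group's range, passed Dixon's 95% critical value. Chance gives about 1 in 20 such groups. TG Me-X04+ library 1 stood apart in 5 of them. It was below the other TG Me-X04+ libraries for Glb1 (4.63), Tlr2 (4.77) and Ecscr (-1.61 against 2.51 to 3.08), and above them for Lilrb4a (6.89 against 5.88 to 5.99). For Uqcrc1, a subunit of complex III that was not DE, it had a log2 RPKM of 11.37 against 1.82 to 2.84 in the other 3. TG Me-X04- libraries 1 and 2 were also high for Uqcrc1, at 9.72 and 10.45, against 2.26 to 2.41 in the other 3 of that group. TG Me-X04+ library 3 lay above the rest for Clec4a2 (1.55), Cd33 (7.59) and Clec4b1 (-2.10, where the others had 0 reads). TG Me-X04- library 5 lay below the other TG Me-X04- libraries for Fth1 (7.97) and Gnptg (2.06), TG Me-X04- library 2 for Arid3b (2.03), and TG Me-X04- library 1 lay above them for Cd36 (0.76). TG Me-X04- library 1 also lay above them for Eef2 (6.57 against 5.66 to 5.91) and below them for Slc2a5 (4.73 against 5.16 to 5.25) and Ifngr1 (6.44 against 6.68 to 6.76), and TG Me-X04- library 5 lay below them for Eef1b2 (3 against 4.04 to 4.31).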

How the results depend on the processing

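The count of DE genes (986, 617 higher and 369 lower) moved most with the library set. It was 2142 (1324 higher, 818 lower) with a term for the 2 sets, 2262 (1328 and 934) in set B alone and 85 (63 and 22) in set A alone, the last with fewer libraries. Fitting only the 2 TG groups gave 470 (347 and 123). A mean log2 RPKM of at least 2 left 655 (169 lower), with fewer genes tested. Scaling by reads outside mitochondrial genes gave 308 higher and 680 lower genes, and leaving out processed pseudogenes 401 higher. With the replicate block for animal 848 genes were DE (490 and 358), and with that block and only the 2 TG groups 1079 (849 and 230). When 1 library was left out, 552 to 1021 genes were DE, 340 to 543 higher and 212 to 496 lower. Adding 1 to the values gave 727 higher and 253 lower (74.2% higher), and voom on recovered reads 738 and 287 (72%). Of 47 function lists 39 had a median above that of all genes (29 to 45 over the alternatives), and 26 kept their side in all of them. Among genes named by rule, 127 had an adjusted p under 0.05, taken here without the fold threshold, so not all were DE. None of the DE genes changed direction. Of the 127, 104 kept their label, DE or not, with the animal as a block. The number was 97 after scaling by reads outside mitochondrial genes, 93 after quantile normalization and 81 with only the 2 TG groups. It was 114 in set B alone, 19 in set A alone and 95 to 111 when 1 library was left out. The cause of these shifts was not tested. The fold changes of 5 named genes with at most 2 reads in any TG Me-X04+ library are limited by depth and were given against a floor or not at all.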
